A study of Mus musculus with 6 samples.

Results

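Keratins of the suprabasal epidermis were followed in whole skin of mice that overexpress Hoxc13, a homeobox gene whose protein regulates hair keratins. The members were all probe sets that the platform annotation assigns to Krt1, Krt2, Krt10 or Krt77, under current or older symbols, which gave 6 probe sets of 4 genes among 12422 probe sets that are not controls. Total RNA of whole skin was hybridised to Affymetrix arrays, 1 sample per array, with 3 samples from GC13 mice, the Hoxc13-overexpressing transgenic line, and 3 from FVB mice, an albino inbred strain. All mice were 5 days old. The labels name no promoter for the transgene, no strain background for GC13, no sex and no pooling of mice. Nor do they state that each sample was a different mouse, so the p-values reflect only how these samples spread, which may be technical.

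Keratins assemble as obligate pairs of an acidic type I and a basic type II chain, and the pair changes as a keratinocyte moves outward. Basal cells make Krt5 with Krt14. On leaving the basal layer they switch to Krt1, type II, with Krt10, type I, the main filament pair of the spinous and granular layers and a standard marker of epidermal differentiation. Krt2 is a type II chain that joins later, in the upper spinous and granular layers, and Krt77 is a further type II chain of suprabasal mouse epidermis. In RefSeq, Krt2, Krt1 and Krt77 are direct neighbours in that order in the type II keratin cluster of chromosome 15, and Krt10 lies in the type I cluster of chromosome 11.

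RefSeq promoters were given for 3 of the 4 genes, Krt77, Krt2 and Krt10. The 250 bases before each start are shown 5′ to 3′ on the gene's own strand because Krt77 and a Krt2 probe set were lower in GC13 skin while the main Krt10 probe set was not, and because the overexpressed protein is a homeodomain factor. Capitals mark TATA letters (TATAAA or TATATA) and TTTAT, a core that posterior Hox proteins can bind, on either strand. In assembly GRCm38.p6 the windows are chr15:101869706-101869955 for Krt77, chr15:101818170-101818419 for Krt2 and chr11:99389365-99389614 for Krt10, all on the minus strand. RefSeq gene spans place the Krt2 and Krt10 windows inside their genes, so these starts are not the most upstream ones annotated.
Krt77: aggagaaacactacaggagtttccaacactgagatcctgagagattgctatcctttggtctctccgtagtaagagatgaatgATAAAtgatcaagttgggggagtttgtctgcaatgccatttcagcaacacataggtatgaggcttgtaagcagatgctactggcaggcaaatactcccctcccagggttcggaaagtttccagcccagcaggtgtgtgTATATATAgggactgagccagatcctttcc
Krt2: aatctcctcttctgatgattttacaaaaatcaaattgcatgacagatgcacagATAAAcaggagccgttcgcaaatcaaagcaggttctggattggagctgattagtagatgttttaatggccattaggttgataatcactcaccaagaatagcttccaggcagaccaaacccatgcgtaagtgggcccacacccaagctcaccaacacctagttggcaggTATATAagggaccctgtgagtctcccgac
Krt10: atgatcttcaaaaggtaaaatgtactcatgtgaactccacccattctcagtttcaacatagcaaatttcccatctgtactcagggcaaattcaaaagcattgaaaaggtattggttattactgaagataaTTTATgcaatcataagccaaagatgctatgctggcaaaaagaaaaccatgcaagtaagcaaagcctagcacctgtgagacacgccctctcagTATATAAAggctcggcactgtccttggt
Each of these promoters held a TATA match on the gene's strand close to the start. It began 30 bases before the start in Krt77, 29 in Krt2 and 28 in Krt10. Of 32851 RefSeq promoters 2.39% had TATAAA or TATATA on the gene's strand between 35 and 20 bases before the start. TTTAT occurred once on the opposite strand in Krt77, beginning 168 bases before the start, and once in Krt2, beginning 197 bases before it. Krt10 held 2 matches, 1 of which overlaps its TATA letters. Of all promoters 37.3% held TTTAT on either strand, so a match is common. Whether Hoxc13 binds or regulates these promoters was not tested. The letters TTAAT, also scanned on either strand but not put in capitals, had 1 match in Krt2 and none in Krt77 or Krt10. Of all promoters 24.9% held TTAAT. The longer letters TTTACG and TTTATTG, on either strand, were in none of the 3 windows, against 2.61% and 4.20% of all promoters, nor was the AP-1 site TGACTCA (4.46%).

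Values were deposited as linear intensities. Array totals ran from 1640876 to 1736141 in GC13 and from 1626361 to 1644444 in FVB, and the number of arrays limits the precision. Gapdh control probe sets at the 3′ and 5′ ends gave a 3′ over 5′ ratio, higher in degraded RNA, of 2.22, 9.58 and 2.19 on GC13 arrays 1, 2 and 3, and between 0.894 and 0.958 on the FVB arrays (exact two-sided permutation test p = 0.1, the smallest that 3 against 3 allows). The same ratio for beta-actin was 1.26, 3.80 and 1.43 on the GC13 arrays and 1.16 to 1.36 on the FVB arrays, so by beta-actin the groups overlapped and GC13 array 2 alone lay clearly above the others (exact two-sided permutation test p = 0.2). The part of RNA quality in the values below was not tested. GC13 replicate 2 had the lowest mean correlation with the other arrays of its group, 0.909 over the tested probe sets. GC13 replicates 1 and 3 had 0.942 and 0.929, and the FVB arrays had 0.978 to 0.983 within FVB. With the FVB arrays, GC13 replicates 1, 2 and 3 had mean correlations of 0.943, 0.937 and 0.922. The keratin values and the counts of genes past the threshold are given with and without GC13 replicate 2 where they differ. Eif2s3y, a gene of the Y chromosome, stood at 3.25, 143 and 4.60 in GC13 and at 69.4 to 98.9 in FVB, and the part of sex in the values below was not tested. The annotation used here lists no probe set for Hoxc13, so the level of the transgene was not analysed here.

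GC13 skin was compared with FVB skin to see how these keratins stand when Hoxc13 is overexpressed. Their values differed in direction and size. Krt77 was 2.48-fold lower in GC13 skin and 1 of the Krt2 probe sets 3.85-fold lower, Krt1 was brighter on every GC13 array without passing the test, and its partner Krt10 overlapped between the groups. Of 6 probe sets 5 passed the filter on low intensity and were tested, and 2 fell at an adjusted p under 0.05 in limma, while none rose. Over all 9316 tested probe sets 0.472% passed, 0.386% as falls and 0.0859% as rises. The 3 GC13 values did not overlap the 3 FVB values in 4 of the 5, of which 3 were lower and 1 was higher in GC13, where 22.9% of all tested probe sets did not overlap (12.3% lower and 10.6% higher). For each probe set, the number of expressing cells and the keratin RNA per cell cannot be told apart in whole skin.

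**Figure D1:**
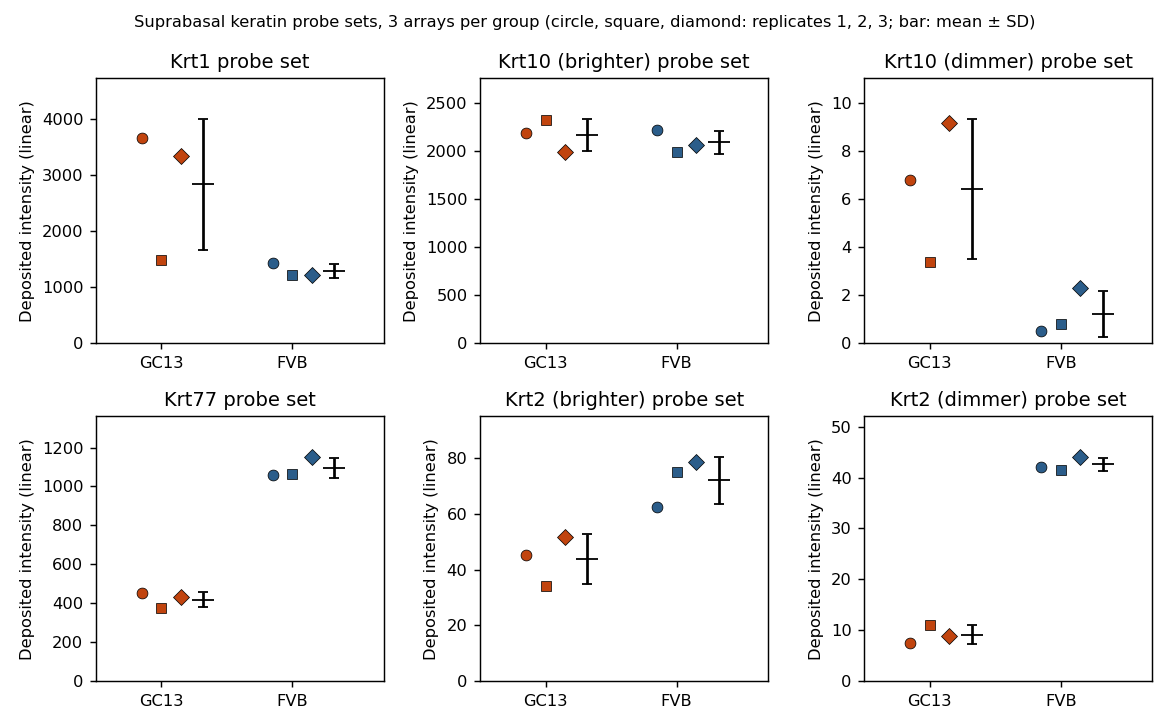
Deposited intensity (linear axis from 0) of the 6 keratin probe sets on 3 GC13 arrays (left, orange) and 3 FVB arrays (right, blue), with circle, square and diamond for replicates 1, 2 and 3 and the bar for mean ± SD. Krt77 and both Krt2 probe sets lie lower in GC13 with no overlap, Krt1 is at 3661 and 3338 on GC13 arrays 1 and 3 but 1488.5 on array 2, and the brighter Krt10 probe set overlaps.

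Krt77 was measured by 1 probe set (94447_at). Its intensities were 451, 374 and 430.0 on the GC13 arrays, against 1060.3, 1066 and 1152 on the FVB arrays. All 3 GC13 arrays were low and close together, array 2 included, and none came near an FVB value. Krt77 averaged 418 ± 39.9 in GC13 and 1093 ± 51.5 in FVB (SD, n = 3 each), and its log2 fold change, GC13 minus FVB, was -1.31 (SE 0.19, 95% confidence interval -1.75 to -0.87, limma adjusted p = 0.037). Relative to the FVB mean, the centred log2 values of Krt77 were -1.24, -1.28 and -1.42 on GC13 arrays 1, 2 and 3. Without GC13 replicate 2 the fall was as large, at -1.33 (limma adjusted p = 0.00762), in a fit where 14.8% of all tested probe sets passed. The call was lost without GC13 replicate 1 (limma adjusted p = 0.0938) or 3 (0.0972) and without FVB replicate 1 (0.301), 2 (0.240) or 3 (0.247), while the log2 fold change stayed between -1.35 and -1.26. It was also lost with no pseudocount (limma adjusted p = 0.0566). Of all 9316 tested probe sets, 9 passed without GC13 replicate 1 and 11 without GC13 replicate 3. None passed without FVB replicate 1, 2 or 3.

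Krt2 was measured by 2 probe sets that both lay lower in GC13 but by different amounts. The dimmer one (94703_at, accession M24151) had 7.40, 11.02 and 8.85 in GC13 and 42.1, 41.6 and 44.1 in FVB. Its FVB values were within a few units of each other, and every GC13 value was far below them. It averaged 9.09 ± 1.82 in GC13 and 42.6 ± 1.33 in FVB (SD, n = 3 each), with a log2 fold change of -1.95 (SE 0.24, 95% confidence interval -2.50 to -1.39, limma adjusted p = 0.0294). Intensities near 10 are low for these arrays, where the deposited values carry no detection call, and the size of this fall depended on the pseudocount, with -2.17 without one and -0.82 with 32. Its call was lost without GC13 replicate 1 (limma adjusted p = 0.0918) or 3 (0.0957) and without FVB replicate 1 (0.221), 2 (0.172) or 3 (0.169). In these fits 9, 11, 0, 0 and 0 of 9316 tested probe sets passed, in that order. Without GC13 replicate 2 the call was kept, at -2.16 (limma adjusted p = 0.00225), in a fit where 14.8% of all tested probe sets passed.

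The brighter Krt2 probe set (101698_f_at, accession AI852429) had 45.2, 34.2 and 51.9 in GC13 and 62.6, 74.97 and 78.8 in FVB. The groups did not overlap, but the gap between the highest GC13 and the lowest FVB array was small. It averaged 43.8 ± 8.96 in GC13 and 72.1 ± 8.47 in FVB (SD, n = 3 each), with a log2 fold change of -0.63 (SE 0.20, 95% confidence interval -1.09 to -0.18) that did not pass (limma adjusted p = 0.203). Without GC13 replicate 2 the log2 fold change was -0.57 and did not pass either (limma adjusted p = 0.055). In Affymetrix naming the letter f marks a probe set whose probes can match several members of a sequence family, and whether other keratins contributed to its signal was not tested.

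Within each array, the log2 value of the brighter Krt2 probe set minus that of the dimmer one was 2.33, 1.47 and 2.31 in GC13 and 0.55, 0.82 and 0.81 in FVB. It averaged 2.04 ± 0.49 in GC13 and 0.73 ± 0.15 in FVB (SD, n = 3 each), so the response of the 2 probe sets differed by 1.31 on the log2 scale (exact two-sided permutation test p = 0.1, the smallest possible, and 0.117 after Benjamini-Hochberg adjustment over 7 such pairs). With a pseudocount of 32 the difference shrank to 0.40. On GC13 replicate 2 the spacing was narrowest of the GC13 arrays.

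Krt1 had intensities of 3661, 1488.5 and 3338 on GC13 arrays 1, 2 and 3, against 1435, 1216 and 1216 on the FVB arrays. Arrays 1 and 3 of GC13 were more than double every FVB array, and array 2, the one with the Gapdh ratio of 9.58, lay just above the highest of them. Krt1 averaged 2829 ± 1172 in GC13 and 1289 ± 126 in FVB (SD, n = 3 each), with a log2 fold change of 1.11 (SE 0.30, 95% confidence interval 0.41 to 1.80) that did not pass over all probe sets (limma adjusted p = 0.158). Without GC13 replicate 2 the value was 1.42 (SE 0.18) and passed (limma adjusted p = 0.01), where 14.8% of all tested probe sets did. Relative to the FVB mean, the centred log2 values were 1.54, 0.48 and 1.30 on GC13 arrays 1, 2 and 3. The part of RNA quality or of sex in this spread was not tested: the array with the lowest Krt1 of its group was also the one with the highest Gapdh ratio and the highest Eif2s3y.

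Krt10, the type I partner of Krt1, was measured by 2 probe sets of which 1 gave a usable level. The brighter one (94321_at, accession V00830) had 2192, 2324 and 1991 in GC13 and 2221, 1986 and 2064 in FVB. The groups overlapped. It averaged 2169 ± 168 in GC13 and 2090.1 ± 119.6 in FVB (SD, n = 3 each), and its log2 fold change was 0.13 (SE 0.22, limma adjusted p = 0.821). The 95% confidence interval ran from -0.39 to 0.64, a fold between 0.763 and 1.56, so a change within that range remains possible. With 3 arrays a group, the interval is not a limit of detection. The direction was reversed by quantile normalization (-0.015) and without GC13 replicate 2 (-0.022). The dimmer Krt10 probe set (162121_at) had 6.79, 3.37 and 9.17 in GC13 and 0.508, 0.807 and 2.30 in FVB. It fell under the filter, which leaves out the dimmest 25%, and was not tested, and values this low have no known signal over background. The within-array difference between the 2 Krt10 probe sets shifted by -1.32 on the log2 scale (exact two-sided permutation test p = 0.1), a value that rests on these dim intensities.

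**Figure D2:**
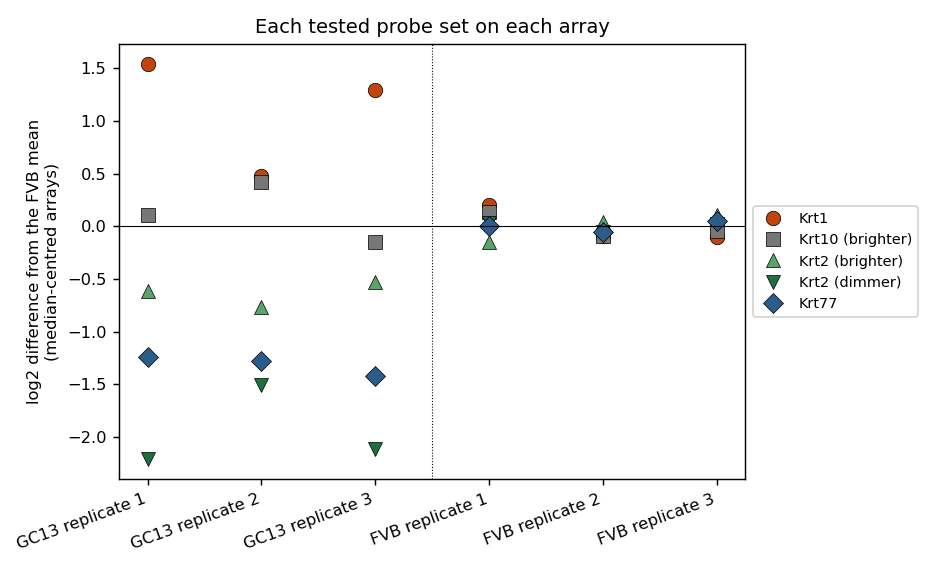
Centred log2 value of each tested keratin probe set on each array as the difference from the mean of the FVB arrays (vertical axis, log2 units), with GC13 arrays left of the dotted line and FVB arrays right of it. Krt77 lies between -1.42 and -1.24 on all GC13 arrays, whereas Krt1 lies at 1.54 and 1.30 on arrays 1 and 3 and at 0.48 on array 2.

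The type II chains were also set against Krt10 within each array. Krt1 minus Krt10 was 0.74, -0.64 and 0.75 on the log2 scale in GC13, and -0.63, -0.71 and -0.76 in FVB. GC13 replicate 2 lay among the FVB arrays, and the groups overlapped (difference 0.98, exact two-sided permutation test p = 0.2). Krt77 minus Krt10 was -2.28, -2.63 and -2.21 in GC13 and -1.07, -0.90 and -0.84 in FVB, with no overlap and a difference of -1.44 (exact two-sided permutation test p = 0.1). The dimmer Krt2 probe set minus Krt10 differed by -2.07 and the brighter by -0.76 between the groups (exact two-sided permutation test p = 0.1 for each). After Benjamini-Hochberg adjustment over the 7 pairs computed these exact p-values were 0.117 for the comparisons at the smallest possible p and 0.2 for Krt1. The neighbouring genes Krt77 and Krt1 were also set against each other. Krt77 minus Krt1, a pair chosen after the values were seen, was -3.01, -1.99 and -2.95 in GC13, against -0.44, -0.19 and -0.08 in FVB, a difference of -2.42 on the log2 scale.

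In the type II cluster the same contrast lay between direct neighbours. These neighbours are named for their position. In RefSeq order the genes run Krt6a, Krt5, Krt71, Krt72, Krt73, Krt2, Krt1, Krt77, Krt76, Krt4, Krt79, Krt78 and Krt8. Krt72, which belongs to the inner root sheath around the growing hair, fell by 1.37 on the log2 scale (SE 0.19, limma adjusted p = 0.0351). Krt71, also of the inner root sheath and next to Krt72, had 0.35, Krt6a, a stress-induced and companion layer keratin, had 0.16 by its brighter probe set, and Krt4 and Krt8, keratins of internal and simple epithelia, had 0.57 and 0.07, none past the threshold. In the type I cluster around Krt10, the inner root sheath keratins Krt25 and Krt27 had 0.05 and -0.03, and Krt12, known from corneal epithelium, had 1.45 (limma adjusted p = 0.189).

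**Figure D3:**
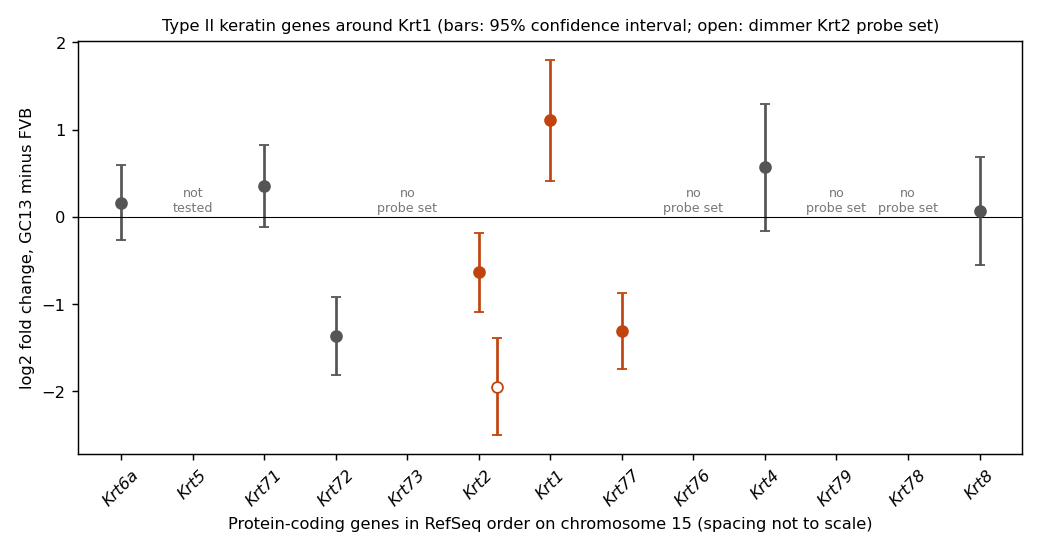
Fitted log2 fold change, GC13 minus FVB (vertical axis), of keratin genes in RefSeq order along chromosome 15 (spacing not to scale), by their brightest tested probe set, with 95% confidence intervals as bars. Krt2, Krt1 and Krt77 are in orange, with the dimmer Krt2 probe set as an open point. Krt1 at 1.11 stands between Krt2 at -0.63 and Krt77 at -1.31.

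The genes whose centred log2 values were most like each keratin over the 6 arrays were ranked by Pearson's r, given as a description. All 6 points share the same arrays and the same 2 groups. For Krt1 they were Alox12b, a lipoxygenase of the epidermal barrier (r = 0.997), Mbd6 (0.995) and Eno3 (0.993). Alox12b had 242, 115 and 231 in GC13 and 104, 97.7 and 96.7 in FVB, the same high, low, high order over the GC13 arrays as Krt1, and did not pass (log2 fold change 0.96, limma adjusted p = 0.155). For Krt10 they were Psmb7 (r = 0.993), the ribosomal protein gene Rps4x (0.991) and Bub3 (0.989). For Krt2, by its brighter probe set, they were Abcc5 (r = 0.995), Plekho1 (0.992) and Kng1 (0.989). Plekho1 had 2.54 to 5.93 in GC13 and 15.1 to 21.0 in FVB. Kng1 had 2.54 to 5.41 in GC13 and 9.94 to 14.3 in FVB. For both genes the signal over background at these dim values is unknown.

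For Krt77 the most alike gene was Krt72 (r = 0.998), followed by the actin-capping gene Capg (0.998) and Cops5 (0.996). Krt72 had 474, 361 and 424 in GC13 and 1089, 1103 and 1216 in FVB. Its values tracked those of Krt77 on every array, and the log2 ratio of Krt72 to Krt77 intensity ran only from -0.05 to 0.08 over the 6 arrays, whereas that of Krt71 to Krt77 ran from 1.29 to 3.14. The annotation gives no sequence accession for either probe set, 94447_at or 95528_at. Whether they read separate transcripts was not tested, and the falls of Krt77 and Krt72 are not given as independent results.

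**Figure D4:**
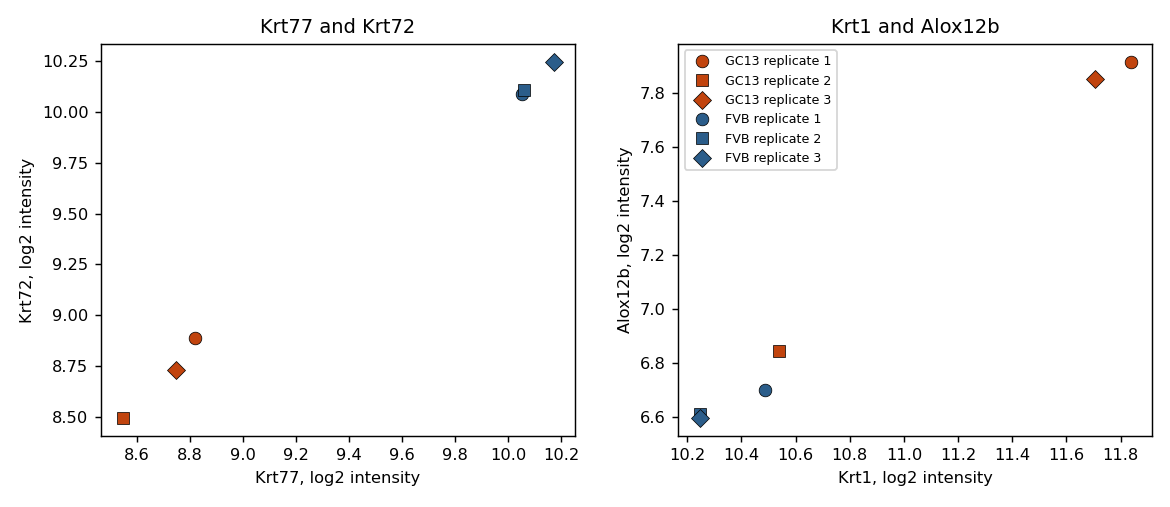
Log2 intensity of Krt77 against Krt72 (left) and of Krt1 against Alox12b (right), 1 point per array, GC13 in orange and FVB in blue, with circle, square and diamond for replicates 1, 2 and 3. GC13 replicate 2 lies with the other GC13 arrays for Krt77 and Krt72, but close to the FVB arrays for Krt1 and Alox12b.

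Other genes of the epidermal programme were counted from lists. Of 18 tested cornified envelope and granular layer genes none passed, with 12 above 0 and 6 below and a median log2 fold change of 0.38. Over all tested probe sets the median was 0.08 and 57.4% were above 0, which is the background for the counts in this and the following lists. Flg, which encodes filaggrin, had 1.05 (limma adjusted p = 0.0977) and Alox12b was next. Lor, which encodes loricrin, had intensities of 2397, 796 and 2492 in GC13 and of 1103, 1269 and 1373 in FVB, again with GC13 replicate 2 low. The median of the list relative to FVB was 0.51, 0.19 and 0.41 on GC13 arrays 1, 2 and 3. Without GC13 replicate 2, a choice made after seeing the data, 4 of the 18 passed as higher (Lor, Flg, Sprr3 and Alox12b) and 1, Scel, as lower, where 14.8% of all tested probe sets passed. Lor, Sprr3 and Scel lie outside the naming rule and were picked after their values were seen.

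Of 30 tested regulators of suprabasal commitment none passed, with 13 above 0 and 17 below and a median of -0.07. Elf3, an epithelial ETS factor, had 8.36, 21.7 and 13.0 in GC13 and 36.5, 40.4 and 56.9 in FVB (log2 fold change -1.49, limma adjusted p = 0.14). Pou3f1, a POU factor of epidermis, had -1.32 (limma adjusted p = 0.158). Notch1, which drives the basal to spinous switch, had 0.07 and Trp63, the p63 gene that keeps the basal state, had 0.02. Without GC13 replicate 2, 2 passed as higher (Hey1 and Pou2f3) and 4 as lower (Cebpb, Prdm1, Rxra and Elf3), in a fit where 14.8% of all tested probe sets passed. Notch1, Trp63 and the genes named here other than Elf3 and Pou3f1 were picked after their values were seen.

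Desmosomes anchor the suprabasal filaments, and of 11 tested desmosome genes none passed, with 6 above 0 and 5 below and a median of 0.09. Dsc2 and Dsc3, desmocollins, had -1.79 and -1.08 (limma adjusted p = 0.182 and 0.229). Dsc1, the desmocollin of the upper layers, named after its values were seen, had -0.10. Dsc2 passed as lower without GC13 replicate 2, in a fit where 14.8% of all tested probe sets passed. Among the 4 stress-induced keratins none passed, and Krt6b and Krt6a had 1.75 (limma adjusted p = 0.231) and 0.16. The probe sets of Krt6a disagreed: the dimmer one (104370_s_at) had 377, 146 and 433 in GC13 and 623, 584 and 601 in FVB, with no overlap and a log2 fold change of -0.98 that did not pass (limma adjusted p = 0.23). The 7 other epithelial keratins had none past the threshold, with Krt19 at 1.09 (limma adjusted p = 0.0929) and Krt18 at -0.47. Without GC13 replicate 2 Krt19 passed as higher, in the same fit where 14.8% of all tested probe sets passed.

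Markers of the basal layer and of other skin cells were read beside the keratins. Of 11 basal keratinocyte genes with a probe set 8 were tested and none passed, with a median of 0.14, led by Lama3 and Col17a1 at 0.44 and 0.49. Without GC13 replicate 2 Col17a1 passed as higher, in a fit where 14.8% of all tested probe sets passed. The summed intensity of the 11 basal genes was 2702.68 to 3195 in GC13 and 2425 to 2703.15 in FVB, so the groups just overlapped. Itgb1 alone had 1072 to 1405 in GC13 and 1170 to 1270 in FVB, a large part of this sum. The defining basal keratins Krt5, Krt14 and Krt15 had intensities of at most 14.2 on every array and fell under the filter, in a tissue where their transcripts are abundant, so these probe sets gave no usable check of the basal layer. The summed cornified envelope and granular layer genes ran from 14913 to 25041 in GC13 and from 16495 to 17259 in FVB, lowest on GC13 replicate 2. All 4 tested inner root sheath keratins summed to 7650.3 to 9337 in GC13 and 8477 to 8792 in FVB, and 1 of them, Krt72, fell.

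Markers of dermal and other cell types were summed in the same way. All 16 tested dermal fibroblast genes were above 0, where 57.4% of all tested probe sets were, with a median of 0.65, and 1, Vcan, rose. Of the 16, 8 passed as higher without GC13 replicate 2, where 14.8% of all tested probe sets passed in either direction. Their summed intensity was 19003 to 24256 in GC13 and 14802 to 15670 in FVB, without overlap. The endothelial sum was 916 to 1171 in GC13 and 650.3 to 779 in FVB, the adipocyte sum 2392 to 2909 in GC13 and 1939 to 2017 in FVB, and the skeletal muscle sum 3651 to 4050 in GC13 and 3256 to 3335 in FVB. The melanocyte sum was 769 to 1000.3 in GC13 and 1244 to 1306 in FVB. The macrophage sum was 648 to 732 in GC13 and 710.2 to 763 in FVB, and the sebaceous gland sum 2434 to 2780 in GC13 and 2482 to 2551 in FVB, both overlapping. In these 6 lists no member passed with all arrays. Without GC13 replicate 2, where 14.8% of all tested probe sets passed, 5 of 15 tested skeletal muscle genes passed as higher and 1 as lower, 2 of 8 melanocyte genes (Tyrp1 and Oca2) and 2 of 9 macrophage genes (C1qa and Lyz2) passed as lower, and Eng, Retn and Mc5r passed as higher. Tyrp1 and Lyz2 were picked after their values were seen. In the order above, the genes of smallest p in each list were Eng (1.02) and Cldn5 (-0.65), Retn (1.01) and Lep (0.60), Myh3 (1.04) and Casq1 (0.94), Oca2 (-0.999) and Mitf (-0.55), C1qa (-1.87) and C1qb (-0.56), and Mc5r (0.77) and Pparg (0.31). The macrophage pair lay below 0, whereas 5 of the 9 tested macrophage genes were above 0, with a median of 0.11. Single genes weighed heavily in some sums. Scd1 alone had 1891 to 2284 in GC13 and 2013 to 2066 in FVB, most of the sebaceous gland sum. Acta1 had 1850 to 2081 in GC13 and 1684 to 1830 in FVB, a large part of the muscle sum. The part of a different share of dermis, fat or muscle in the keratin values was not tested.

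**Figure D5:**
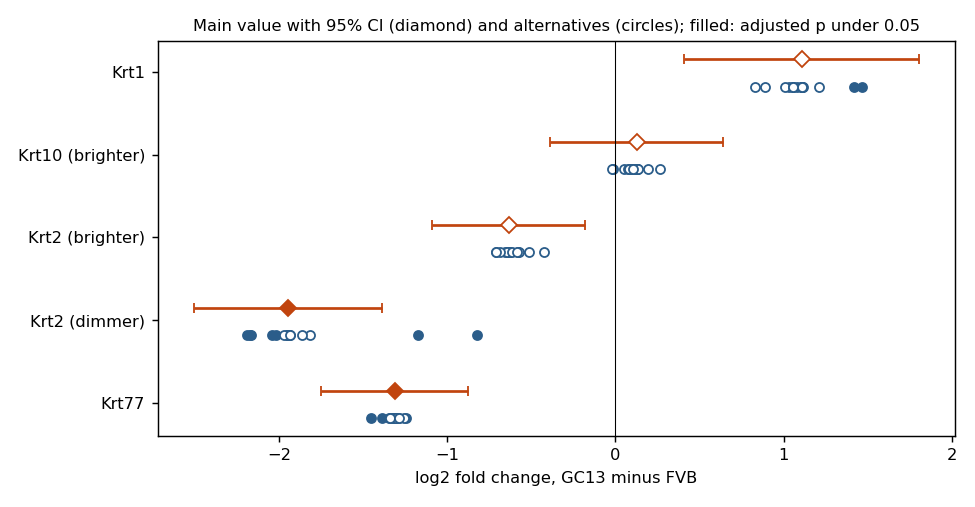
Log2 fold change, GC13 minus FVB (horizontal axis), of each tested keratin probe set, with the main value and its 95% confidence interval as a diamond and each alternative setting as a circle, filled where the limma adjusted p was under 0.05. Krt77 stays between -1.45 and -1.24, and Krt1 between 0.83 and 1.46, with 2 of its 17 alternatives past the threshold.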

How the data were processed

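Expression was measured on single-channel Affymetrix arrays of whole mouse skin, 3 GC13 and 3 FVB samples. The deposited values are linear intensities. Not given in the sources used here were the software, the background correction and any detection calls. By its values, every array was scaled to a mean of 100 with the highest and lowest 2% left out. Columns were assigned to samples by accession, and groups by title.

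The 66 control probe sets were set aside. The other 12422 were put on the log2(intensity + 2) scale, which understates changes of dim probe sets. Each array was centred on its median, since medians differed by up to 0.345. The 25% with the lowest mean over all arrays were left out, leaving 9316. The 2 groups were set against each other with limma 3.58.1 (lmFit, eBayes; R 4.3.3), two-sided, and p-values were adjusted by Benjamini-Hochberg over the 9316, with a threshold of 0.05. Within-array differences were compared by exact two-sided permutation tests (SciPy 1.17.1). The fit was also run on simulated arrays, with errors drawn alike for every array. That run did not include an outlying array such as GC13 replicate 2.

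Names came from the platform annotation, updated by Entrez identifier through the RefSeq table of GRCm38.p6, in which 10817 of 10833 probe sets with 1 gene were found. A gene in a list stands by its brightest tested probe set. Promoter sequences are RefSeq's. The sources name no build for the array, so gene coordinates are not given. From each list the members past the threshold were named, or else the 2 with the smallest p, and for each keratin the 3 genes of highest Pearson's r. Members and lists were chosen with earlier results of these data known. Alternatives covered pseudocounts, filters, scalings, a variance trend, array weights, a replicate block and leaving out each array.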

Additional observations from a re-analysis of the deposited data

How the results depend on the processing

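Over the 17 alternatives (16 for the dimmer Krt2 probe set, which is left out when the lowest 50% are), Krt1, Krt77 and both Krt2 probe sets kept their direction. Leaving out 1 array at a time gave log2 fold changes of 0.89 to 1.42 for Krt1, -0.022 to 0.26 for the brighter Krt10 probe set, -0.71 to -0.57 for the brighter and -2.16 to -1.81 for the dimmer Krt2 probe set, and -1.35 to -1.26 for Krt77. Krt10 was reversed by quantile normalization (-0.015) and without GC13 replicate 2 (-0.022). Array weights brought Krt1 (1.46) and the brighter Krt2 probe set (-0.58) past the threshold. Krt77 missed it with no pseudocount (-1.31) and with the replicate block (-1.31, limma adjusted p = 0.0516). The replicate numbers were not taken as pairing the samples, since the deviations from the group means of same-numbered arrays correlated at -0.07, 0.18 and 0.36, and 3 of the 6 arrays correlated best with their own number. The number of probe sets past the threshold, 44 of 9316, was 22 with no pseudocount, 83 and 119 with pseudocounts of 16 and 32, 23 of 6211 with the lowest 50% left out, 28 without centring, 29 with centring on the 75th percentile, 3850 with array weights and 78 with the replicate block. It ran from 0 to 1379 when 1 array was left out, with 1379 without GC13 replicate 2. In limma none passed without FVB replicate 1, 2 or 3, where 768, 803 and 946 had an unadjusted p under 0.05. The cause was not tested. The 7 within-array differences kept their direction under all 9 alternatives each, and with 1 array left out the smallest possible exact p is 0.2. Levels near the filter, such as the dimmer Krt2 and Krt10 probe sets, are limited by an unknown signal over background.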
